A study of Mus musculus with 12 samples.

Results

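The genes described are 10 genes of BMP and TGF-beta signalling in embryonic mouse lung: the ligands Bmp2, Bmp4, Bmp5, Tgfb1, Tgfb2 and Tgfb3, the receptors Bmpr1a and Tgfbr2, and the target genes Id1 and Id3. They were matched by symbol to the platform annotation, and make up 10 of the 16593 genes on the array. They carry 12 of its 25697 probes. Bmpr1a and Tgfbr2 have 2 probes each and every other member has 1. Probes of one gene share their source and are not replicates of a genotype.

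Whole-lung RNA from E15.5 embryos on a 129/Sv background was measured on 12 Illumina bead arrays, 4 per genotype. Double mutants were Mek1flox/flox;Mek2-/-;Dermo1+/Cre, the 1 Mek1 allele group was Mek1+/flox;Mek2-/-;Dermo1+/Cre, and controls were Dermo1+/Cre. MEK1 and MEK2 are the kinases that phosphorylate ERK. Dermo1-Cre, carried by all 3 groups, is a Cre recombinase driven from the Twist2 locus in embryonic mesenchyme, so floxed Mek1 alleles could be deleted only in recombined cells, while both mutant groups are Mek2-/- by genotype in every cell. Whether each specimen was 1 lung or a pool, and whether specimens came from separate litters, is not stated in the labels, so p-values measure the spread between these specimens.

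BMPs and TGF-betas are secreted dimers that bind pairs of type I and type II serine/threonine kinase receptors. The receptors phosphorylate Smad proteins, which join Smad4 and enter the nucleus: BMP receptors mainly use Smad1, Smad5 and Smad9, and TGF-beta receptors mainly Smad2 and Smad3. In the developing lung, Bmp4 is known for its expression at the tips of distal buds, and TGF-beta signalling for its part in branching, smooth muscle and matrix formation. MAPK signalling meets the pathway at the Smads, whose linker region ERK can phosphorylate.

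Map2k2, the gene of MEK2, measured 10.85 ± 0.24 in double mutants, 10.58 ± 0.15 with 1 Mek1 allele and 11.59 ± 0.08 in controls (log2 normalized intensity, SD, n = 4 each). It fell in both mutant groups against controls (limma adjusted p = 0.0071 for double mutants and 0.0014 with 1 Mek1 allele). This probe stayed above background on all 8 mutant arrays, while a second, dimmer Map2k2 probe was above it on 1 of 4 double mutant, 0 of 4 1 Mek1 allele and 4 of 4 control arrays. Where either probe lies relative to the deleted stretch was not analysed here. Map2k1 signal did not exceed background on any array (0 of 12), so loss of Mek1 could not be checked. Lung markers such as Nkx2-1, Sftpc, Foxf1 and Tbx4 were measured. Of the measured markers of lung epithelium (6), mesenchyme (6), smooth muscle (4) and endothelium (5), 0 passed the threshold in any comparison. In double mutants against controls, 3 of 5 measured mesothelial, 4 of 5 airway and 1 of 3 macrophage markers rose and 1 of 4 red cell markers fell. The 4 red cell markers did not move together: 2 differences were positive and 2 negative, from -1.03 for Slc4a1 to 1.065 for Hbb-bh1. Between 10467 and 11878 probes were above background per array, and controls 2 and 3 were the brightest arrays.

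All values below are log2 normalized intensities, on which a difference of 1 is a doubling. They are given in replicate order from 1 to 4. A probe was tested if its detection p was under 0.01 on at least 4 arrays, as for 11841 probes and 11 of the 12 member probes. A call needed limma's Benjamini-Hochberg adjusted p, over all 11841 probes, to be under 0.05. In whole tissue, fewer cells of a type and less RNA per cell cannot be told apart.

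None of the 11 member probes passed this threshold in any comparison. Against controls, 0 were called in double mutants, where 2.97% of all probes were. The count was 0 in double mutants against 1 Mek1 allele (0.397% of all probes) and 0 with 1 Mek1 allele against controls (0.819%). At an unadjusted p under 0.05 the counts were 2, 2 and 1 of 11 in the same order of comparisons, where 18.4%, 11.3% and 16.1% of all probes had such a p. The smallest adjusted p of a member was 0.183 for Id1 in double mutants against controls, 0.248 for Bmp5 in double mutants against 1 Mek1 allele, and 0.0922 for Id1 with 1 Mek1 allele against controls (limma). The widest 95% interval of a member reached 0.50 to either side of its estimate and the narrowest 0.17, so a missed threshold does not show that levels were equal.

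**Figure D1:**
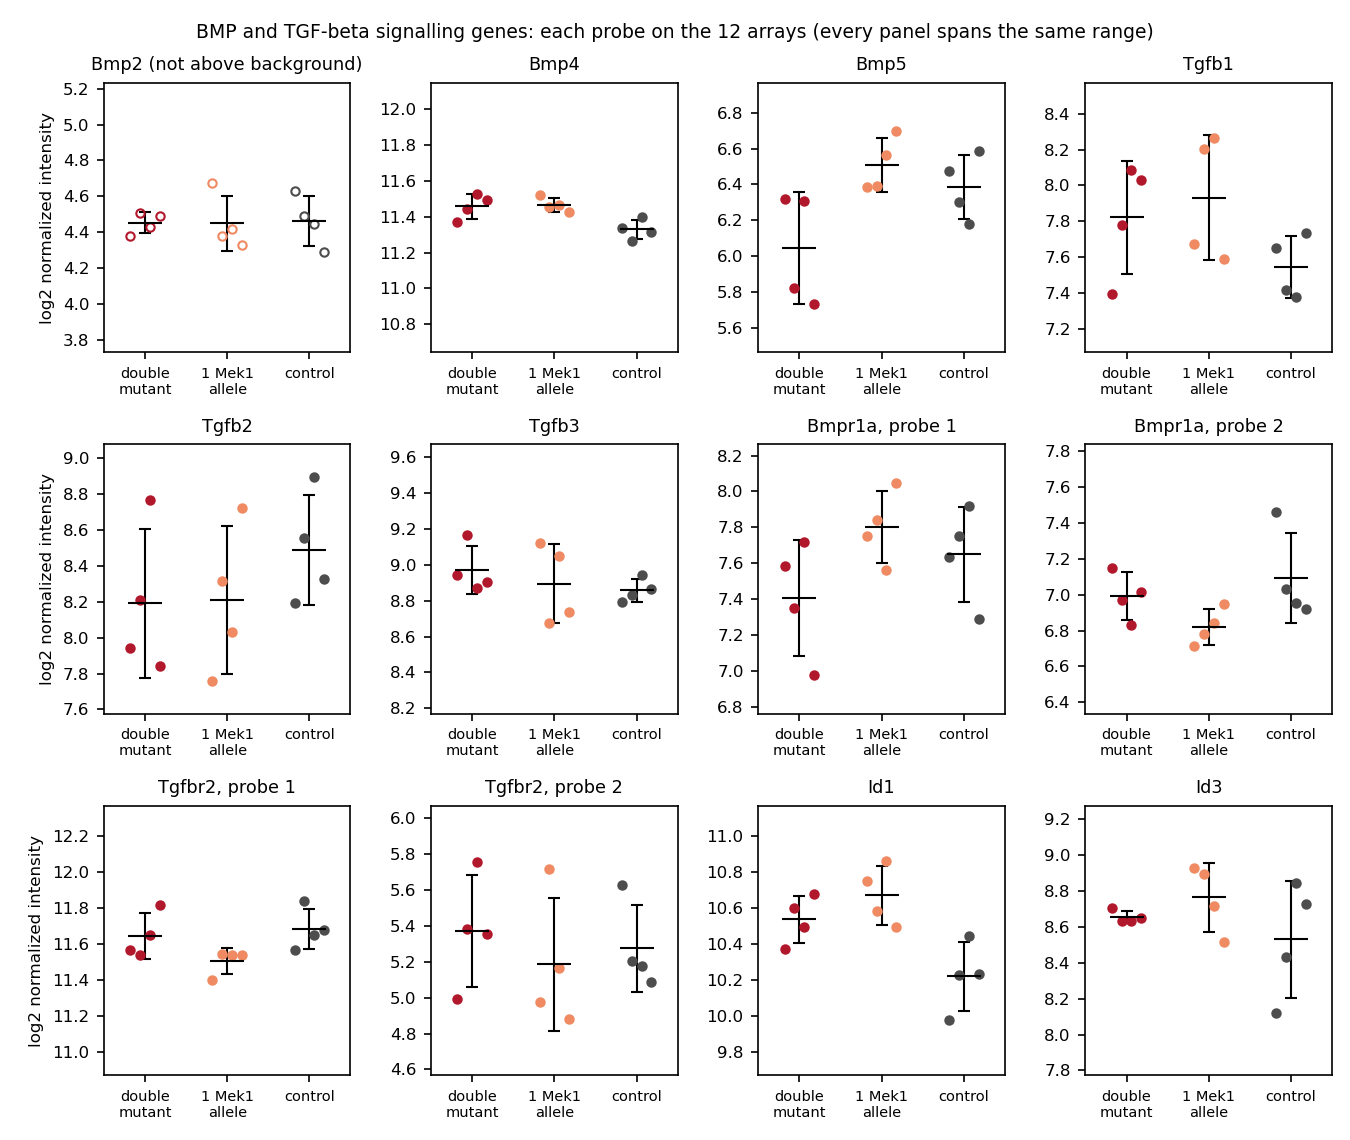
Log2 normalized intensity (y axis) of each of the 12 member probes on the 4 double mutant, 4 1 Mek1 allele and 4 control arrays (points, spread sideways for legibility). Long bars are group means and short bars 1 SD, open points are below background, and every panel spans the same range. The Id1 points with 1 Mek1 allele lie above all control points, and the Bmp5 points of double mutants lie below all points with 1 Mek1 allele.

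Among the ligands, Bmp4, a growth factor of the distal lung bud, was read with the least spread. Its probe had a within-group SD below that of all but 0.296% of the tested probes. Bmp4 measured 11.37, 11.44, 11.53 and 11.49 in double mutants, 11.52, 11.45, 11.47 and 11.43 with 1 Mek1 allele, and 11.34, 11.27, 11.40 and 11.31 in controls. Every array with 1 Mek1 allele lay above every control, while double mutants overlapped both groups. The difference was 0.14 ± 0.08 with 1 Mek1 allele against controls (SE, limma adjusted p = 0.414) and 0.13 ± 0.08 in double mutants against controls (limma adjusted p = 0.422). As folds, the 95% intervals ran from 0.976 to 1.24 and from 0.97 to 1.23. Double mutants differed from 1 Mek1 allele by -0.01 (95% interval -0.18 to 0.16).

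Bmp5 is another BMP ligand of lung mesenchyme. It measured 6.32, 5.82, 6.31 and 5.73 in double mutants, 6.39, 6.39, 6.56 and 6.70 with 1 Mek1 allele, and 6.48, 6.30, 6.18 and 6.59 in controls. Double mutant arrays 2 and 4 were the lowest of the 12, and all 4 double mutant arrays lay below all 4 with 1 Mek1 allele. The difference between those groups was -0.47 ± 0.15, or 0.724-fold (95% interval 0.579 to 0.907, unadjusted p = 0.00828, limma adjusted p = 0.248). Over 28 alternatives it ran from -0.56 to -0.21, and was smallest with no background correction. Against controls, which overlapped both mutant groups, double mutants differed by -0.34 ± 0.15 (unadjusted p = 0.0402, limma adjusted p = 0.244) and 1 Mek1 allele by 0.12 (limma adjusted p = 0.727). The means were ordered from double mutants through controls to 1 Mek1 allele, and the 2 upper groups did not differ beyond their spread.

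The signal of the 1 measured Y-linked probe was 6.97 or above on double mutants 2 and 4, 1 Mek1 allele 2 and control 3, and 5.10 or below on the other 8 arrays. Bmp5 was lowest on those 2 double mutant arrays and lowest among controls on control 3, while on 1 Mek1 allele 2 it lay level with 1 Mek1 allele 1, where the Y-linked signal was low. With the Y-linked signal as a covariate, the difference was -0.38 in double mutants against 1 Mek1 allele (limma adjusted p = 0.291) and -0.27 against controls (limma adjusted p = 0.261).

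Tgfb1, the TGF-beta made by many cell types, had overlapping groups. It measured 7.40, 7.78, 8.08 and 8.03 in double mutants, 7.67, 8.20, 8.26 and 7.59 with 1 Mek1 allele, and 7.65, 7.42, 7.38 and 7.73 in controls. In each mutant group some arrays reached levels above any control and at least 1 fell within the control range. The differences from controls were 0.28 ± 0.18 in double mutants (limma adjusted p = 0.453) and 0.39 ± 0.18 with 1 Mek1 allele (95% interval -0.01 to 0.78, limma adjusted p = 0.32).

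Tgfb2 was the most variable member, with a within-group SD above that of 93% of the tested probes. Its arrays ran from 7.84 to 8.77 in double mutants, from 7.76 to 8.73 with 1 Mek1 allele and from 8.19 to 8.89 in controls. The difference of double mutants from controls was -0.30 ± 0.23, with a 95% interval from -0.80 to 0.20 (limma adjusted p = 0.533). With single arrays left out it ran from -0.49 without double mutant 3 to -0.17 without control 3. It was -0.07 without the 2 brightest arrays, and over 28 alternatives it came as near 0 as -0.0085. With 1 Mek1 allele against controls the Tgfb2 difference was -0.28 ± 0.23 (limma adjusted p = 0.593). That difference turned positive, to 0.19, in 1 of 28 alternatives. Tgfb3 was read with less spread, at 8.97 ± 0.13 in double mutants, 8.90 ± 0.22 with 1 Mek1 allele and 8.86 ± 0.06 in controls (SD, n = 4 each), and its 3 adjusted p-values (limma) were 0.65 or higher. Bmp2 was above background on 0 of 12 arrays, with detection p between 0.218 and 0.959, and has no fold here.

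The type I BMP receptor Bmpr1a was read by 2 probes, both above background on all 12 arrays, which ran differently across genotypes. The first measured 7.58, 7.35, 7.72 and 6.98 in double mutants, 7.75, 7.84, 7.56 and 8.05 with 1 Mek1 allele, and 7.63, 7.75, 7.92 and 7.29 in controls. The second measured 7.15, 6.97, 6.83 and 7.02 in double mutants, 6.71, 6.78, 6.84 and 6.95 with 1 Mek1 allele, and 7.46, 7.03, 6.95 and 6.92 in controls. Groups overlapped on both probes. In double mutants against 1 Mek1 allele the first probe gave -0.39 ± 0.17 (unadjusted p = 0.0402, limma adjusted p = 0.412) and the second 0.17 (limma adjusted p = 0.671). With 1 Mek1 allele against controls they gave 0.15 (limma adjusted p = 0.71) and -0.27 ± 0.13 (limma adjusted p = 0.31). The probes thus had opposite signs in both of these comparisons. In double mutants against controls both were negative, at -0.24 ± 0.17 (limma adjusted p = 0.494) and -0.10 ± 0.13 (limma adjusted p = 0.719).

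The disagreement of the Bmpr1a probes was itself tested after these values had been seen. The first probe's difference minus the second's was -0.56 in double mutants against 1 Mek1 allele (two-sided exact permutation p = 0.0571, adjusted p = 0.257 over 6 such tests) and 0.42 with 1 Mek1 allele against controls (exact permutation p = 0.0857, adjusted p = 0.257). In double mutants against controls, the first probe's difference minus the second's was -0.14 (exact permutation p = 0.6, adjusted p = 0.72). The smallest p that these 70 splits allow is 0.0286. The transcripts that each probe reports were not analysed here.

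Tgfbr2, the type II receptor that binds TGF-beta first, was read by a bright and a dim probe. The bright probe measured 11.57, 11.54, 11.65 and 11.82 in double mutants, 11.40, 11.55, 11.54 and 11.54 with 1 Mek1 allele, and 11.57, 11.84, 11.65 and 11.68 in controls. All arrays with 1 Mek1 allele lay below all controls, and double mutants overlapped both groups. The difference was -0.18 ± 0.10 with 1 Mek1 allele against controls (95% interval -0.38 to 0.03, limma adjusted p = 0.379). In double mutants it was -0.04, where the 95% interval of the fold ran from 0.843 to 1.12 (limma adjusted p = 0.869). The dim probe exceeded background on 4 of 12 arrays, and its 3 adjusted p-values (limma) were 0.783 or higher.

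Of the 10 members, 7 had an entry in the RefSeq promoter table of GRCm38.p6, and the 250 bases before each start were searched on both strands for letters that Smad proteins are known to bind. GGCGCC, linked to the BMP Smads, was in 1 of these 7 windows, and in 9.59% of all 32851 promoters. CAGAC, whose reverse complement is GTCTG, was in 4 of the 7 and in 42.2% of all promoters. The array does not measure binding, and a match is only a description of the letters. The Bmpr1a window is shown because it is the one with GGCGCC, and the Id3 window because Id3 is a target gene and holds CAGAC in both orientations. Capitals mark the matches. The Bmpr1a window is chr14:34502547-34502796 on the minus strand, with the match starting 198 bases upstream. The Id3 window is chr4:136143572-136143821 on the plus strand, with matches starting 167 and 68 bases upstream.
Bmpr1a: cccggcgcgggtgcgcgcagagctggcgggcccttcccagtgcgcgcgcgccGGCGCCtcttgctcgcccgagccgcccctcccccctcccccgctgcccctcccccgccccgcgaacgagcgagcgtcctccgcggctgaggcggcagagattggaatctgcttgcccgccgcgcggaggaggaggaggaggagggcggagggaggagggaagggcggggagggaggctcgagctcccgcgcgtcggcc
Id3: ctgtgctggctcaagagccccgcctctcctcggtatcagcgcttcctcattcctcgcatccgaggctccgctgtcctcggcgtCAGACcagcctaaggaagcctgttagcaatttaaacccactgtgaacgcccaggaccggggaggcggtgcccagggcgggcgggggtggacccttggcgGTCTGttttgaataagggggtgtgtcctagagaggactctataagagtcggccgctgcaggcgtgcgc

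Id1 and Id3 encode helix-loop-helix proteins without a DNA-binding region, which hold back other helix-loop-helix factors and are transcribed in response to BMP. Id1 measured 10.37, 10.60, 10.50 and 10.68 in double mutants, 10.75, 10.58, 10.86 and 10.50 with 1 Mek1 allele, and 9.98, 10.23, 10.45 and 10.23 in controls. All 4 arrays with 1 Mek1 allele lay above all 4 controls, the lowest of them at 10.50 against the highest control at 10.45. Double mutants overlapped controls through array 1. The difference was 0.45 ± 0.12 with 1 Mek1 allele against controls, or 1.37-fold (95% interval 1.14 to 1.64, unadjusted p = 0.00237, limma adjusted p = 0.0922). Double mutants differed from controls by 0.32 ± 0.12, or 1.25-fold (95% interval 1.04 to 1.49, unadjusted p = 0.0207, limma adjusted p = 0.183). Both comparisons used the same controls. Double mutants differed from 1 Mek1 allele by -0.14 (95% interval -0.40 to 0.12, limma adjusted p = 0.731), so the order of those groups is not settled.

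The call on Id1 with 1 Mek1 allele against controls depended on the processing. It passed with no background correction (0.42, limma adjusted p = 0.0286), on the authors' log2 values (0.43, limma adjusted p = 0.0269) and with a variance that followed intensity (0.45, limma adjusted p = 0.0252). It did not pass in the remaining 25 of 28 alternatives, and over all of them its adjusted p ran from 0.0252 to 0.249 and the difference from 0.37 to 0.57.

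**Figure D2:**
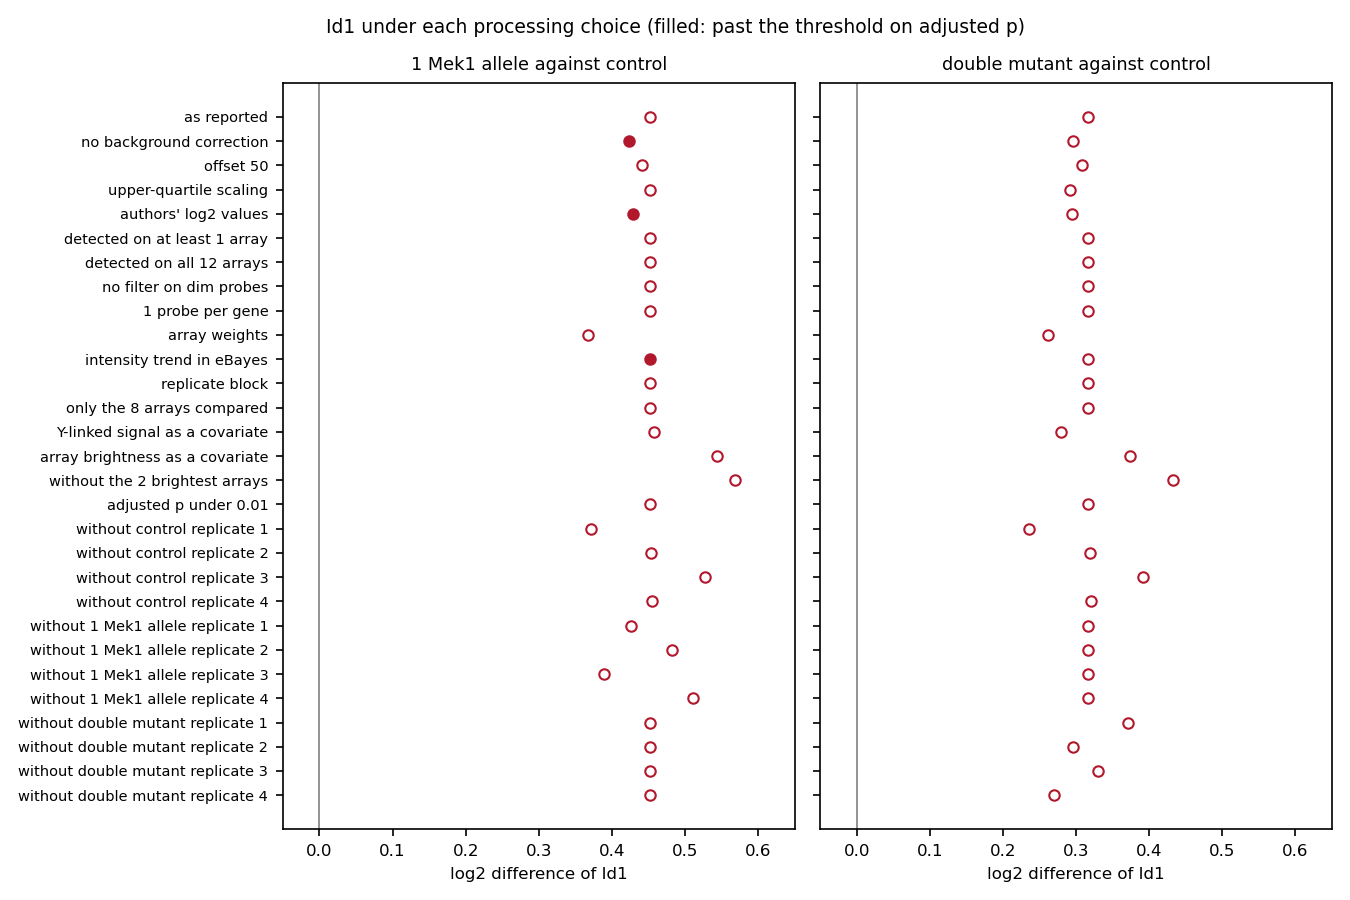
Log2 difference of Id1 (x axis) under each processing choice (rows), with 1 Mek1 allele against controls on the left and double mutants against controls on the right. Filled points passed the threshold on limma's adjusted p. The 3 filled points are on the left, and every point is positive.

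Id3 measured 8.71, 8.63, 8.63 and 8.65 in double mutants, 8.93, 8.90, 8.72 and 8.52 with 1 Mek1 allele, and 8.12, 8.43, 8.84 and 8.73 in controls. Double mutant arrays lay close together and inside the range of the controls. The difference was 0.12 ± 0.15 in double mutants against controls (limma adjusted p = 0.696) and 0.23 ± 0.15 with 1 Mek1 allele against controls (95% interval -0.08 to 0.55, limma adjusted p = 0.449).

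In double mutants against controls, 0 of the 11 member probes had groups that did not overlap, as 13.4% of all probes did (7.29% with double mutants above and 6.14% below). In double mutants against 1 Mek1 allele it was 1, Bmp5, with double mutants below (6.08% of all probes, 3.65% above and 2.43% below). With 1 Mek1 allele against controls it was 3 (9.73% of all probes), of which Bmp4 and Id1 lay above controls (4.57%) and the bright Tgfbr2 probe below (5.16%). The median difference of the 11 probes was 0.10, -0.02 and 0.12 in those comparisons, beside medians of all probes of -0.0063, -0.00054 and -0.0040. Positive differences numbered 6, 4 and 7 of 11.

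**Figure D3:**
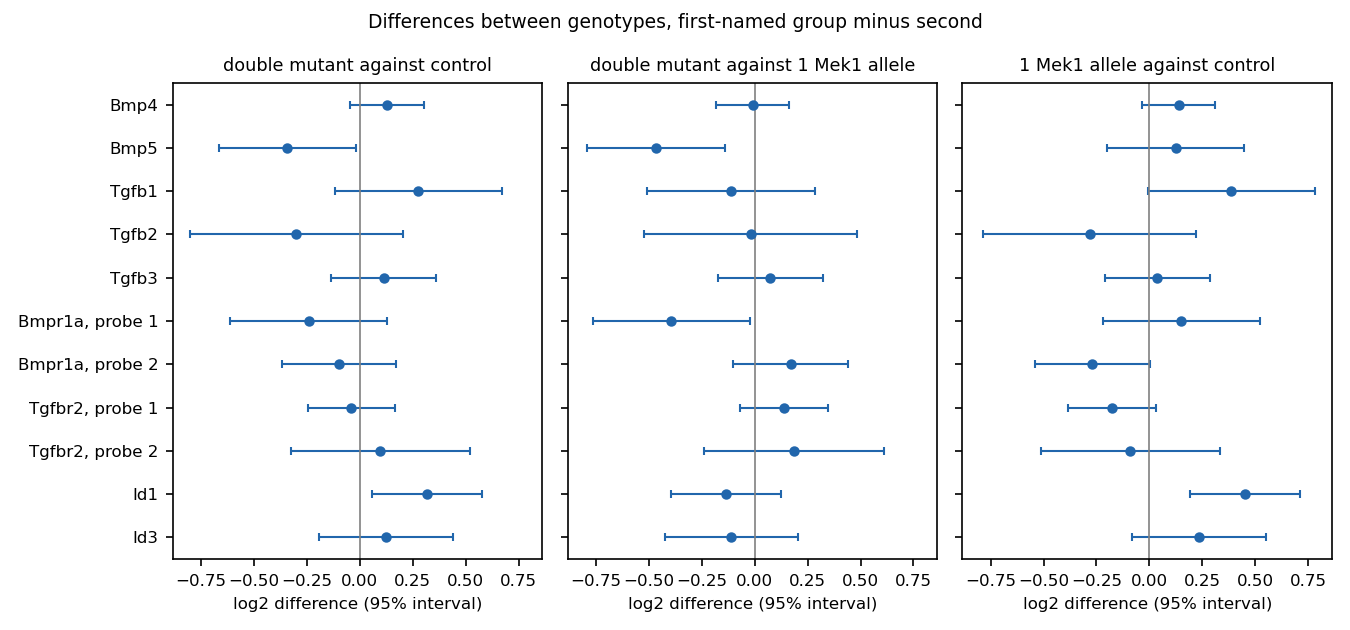
Log2 difference (x axis, first-named group minus second) of the 11 tested member probes (rows) in the 3 comparisons (panels). Points are limma estimates and bars 95% intervals without adjustment for the number of probes. The interval of Id1 lies above 0 in both comparisons with controls, and that of Bmp5 lies below 0 in both comparisons of double mutants. The interval of the first Bmpr1a probe lies below 0 in double mutants against 1 Mek1 allele.

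Beyond the members, 80 other genes of both pathways were listed, of which 42 had a probe past the detection filter. Read from the brightest passing probe of each gene, 0 of 42 passed the threshold in any comparison, where 3%, 0.469% and 0.698% of all 8311 genes did in double mutants against controls, double mutants against 1 Mek1 allele and 1 Mek1 allele against controls. At an unadjusted p under 0.05 there were 13, 7 and 5 of 42, against 18.7%, 11.5% and 16.4% of all genes. Read over all 59 passing probes of these genes, 1 probe passed, in double mutants against controls: the second, dimmer probe of Ltbp3.

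Ltbp3 encodes a latent TGF-beta binding protein, which holds secreted TGF-beta in its latent complex in the matrix. Its second probe measured 7.51, 7.50, 7.34 and 7.63 in double mutants, 6.95, 7.35, 7.33 and 6.85 with 1 Mek1 allele, and 7.02, 6.86, 7.01 and 6.78 in controls. All 4 double mutant arrays lay above all 4 controls. With 1 Mek1 allele, arrays 1 and 4 lay within the control range and array 2 just above double mutant 3. The probe rose in double mutants against controls by 0.58 ± 0.13, or 1.49-fold (95% interval 1.23 to 1.80, limma adjusted p = 0.0296). It gave 0.38 in double mutants against 1 Mek1 allele (limma adjusted p = 0.275) and 0.20 with 1 Mek1 allele against controls (limma adjusted p = 0.453).

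The brighter Ltbp3 probe measured 10.28, 10.54, 10.67 and 10.34 in double mutants, 10.10, 10.19, 10.10 and 9.84 with 1 Mek1 allele, and 10.18, 10.13, 10.16 and 9.98 in controls. On this probe all double mutant arrays lay above all arrays of both other groups, but the difference from controls, 0.35 ± 0.11, did not pass (1.27-fold, 95% interval 1.08 to 1.50, limma adjusted p = 0.122). The rise on the dimmer probe passed in 16 of 27 alternatives, with differences from 0.36 to 0.63 and adjusted p from 0.0133 to 0.202. It was lost when control 2, 3 or 4 or double mutant 1, 2 or 4 was left out, with array brightness as a covariate (0.48, limma adjusted p = 0.148) and with the Y-linked signal as one (0.54, limma adjusted p = 0.0513), and with the replicate number as a block (limma adjusted p = 0.0708), and without the 2 brightest arrays it was 0.60 (limma adjusted p = 0.202). In double mutants against controls, 4 of 5 measured mesothelial, 5 of 5 airway and 3 of 3 macrophage markers had positive differences. The mesothelial marker Upk1b was lower, at 6.46 ± 0.48 in double mutants and 6.89 ± 0.15 in controls (SD). Levels were summed on the linear scale before log2, so bright markers weigh most. The summed level of the 5 measured mesothelial markers of 6 ran from 10.74 to 11.09 in double mutants and from 10.26 to 10.43 in controls, and that of the 5 measured airway markers of 6 from 10.10 to 10.67 in double mutants and from 9.03 to 9.50 in controls. That of the 3 measured macrophage markers of 6 ran from 9.29 to 10.17 in double mutants and from 8.88 to 9.21 in controls. With 1 Mek1 allele the macrophage sum ran from 9.10 to 9.48, overlapping both other groups. Msln, Scgb1a1 and Adgre1, defining markers of those cells, did not pass the detection filter, and the part of these cells in the Ltbp3 difference was not tested.

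Ltbp4, a related latency protein, averaged 10.43 ± 0.13 in double mutants, 10.13 ± 0.17 with 1 Mek1 allele and 10.01 ± 0.17 in controls. Its difference from controls was 0.42 ± 0.12 in double mutants (limma adjusted p = 0.0748). The remaining Ltbp4 probes read 0.41 and 0.23. Of the 12 measured antagonists and latency proteins, 5 had positive and 7 negative differences in double mutants against controls, with a median of -0.05. Chordin, Chrd, which binds BMPs outside the cell, gave 0.29 (limma adjusted p = 0.244). Nog, the BMP antagonist noggin, was picked out after its values were seen: it gave -0.68 in double mutants against 1 Mek1 allele (limma adjusted p = 0.224) and was above background on 2, 3 and 2 of 4 arrays in double mutants, 1 Mek1 allele and controls.

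Of 19 other ligands, 5 were measured. Inha, the inhibin alpha subunit, which opposes activin, measured 6.18, 6.75, 5.96 and 6.60 in double mutants, 5.94, 5.61, 5.96 and 5.74 with 1 Mek1 allele, and 5.62, 5.70, 5.96 and 5.78 in controls. Double mutants 2 and 4 stood highest, and double mutant 3 lay at the level of the highest control. The difference from controls was 0.61 ± 0.16 (limma adjusted p = 0.0602), and with the Y-linked signal, high on double mutants 2 and 4, as a covariate it was 0.55 (limma adjusted p = 0.085). Over 28 alternatives the Inha difference ran from 0.27 to 0.74, with limma adjusted p from 0.0287 to 0.252. Bmp3 and Gdf10 gave -0.14 and 0.10 in double mutants against controls (limma adjusted p = 0.608 and 0.787).

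Among the 8 measured of 14 other receptors and co-receptors, 4 differences were positive and 4 negative in double mutants against controls. Tgfbr1, the type I partner of Tgfbr2, averaged 10.42 ± 0.12 in double mutants, 10.32 ± 0.09 with 1 Mek1 allele and 10.67 ± 0.09 in controls. It gave -0.25 in double mutants (limma adjusted p = 0.177) and -0.34 with 1 Mek1 allele (limma adjusted p = 0.0969) against controls. Eng, the endothelial co-receptor endoglin, gave 0.31 and Acvr2b, an activin receptor, 0.23 in double mutants against controls (limma adjusted p = 0.196 and 0.232). Of the 5 measured endothelial markers, 3 had positive and 2 negative differences in that comparison. Tie1 gave 0.34, with all double mutants above all controls (limma adjusted p = 0.0501), and Emcn -0.23 (limma adjusted p = 0.305). Their part in the Eng difference was not tested.

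Inside the cell, all 5 measured signal-transducing Smads of 6, read from brightest probes, had negative differences in both mutant groups against the shared controls. Their medians were -0.10 in double mutants and -0.18 with 1 Mek1 allele, and 0 passed. Of all 42 measured pathway genes, 23 had negative differences in double mutants and 30 with 1 Mek1 allele against controls. The medians of those 42 genes were -0.06 and -0.09. Another Smad5 probe gave 0.0033 with 1 Mek1 allele against controls, where Smad1 also turned positive in 2 of 28 alternatives (0.05 without the 2 brightest arrays and 0.07 with array brightness as a covariate). Smad1, a BMP Smad, gave -0.41 (-0.14 without the 2 brightest arrays) and Smad3, a TGF-beta Smad, -0.28 in double mutants against controls (limma adjusted p = 0.238 and 0.278). Smad4, the shared partner, gave -0.08 in double mutants (limma adjusted p = 0.64) and -0.18 with 1 Mek1 allele (limma adjusted p = 0.323). Of the 7 measured intracellular inhibitors of 9, 4 had positive and 3 negative differences in double mutants against controls. Smad6 was picked out after its values were seen. Its brightest probe averaged 7.81 ± 0.17 in double mutants, 7.84 ± 0.49 with 1 Mek1 allele and 7.52 ± 0.15 in controls (SD). With 1 Mek1 allele, array 3 was at 8.55 and the others at 7.48 to 7.71, while controls ran from 7.34 to 7.67. Another Smad6 probe gave 0.58 in double mutants (limma adjusted p = 0.119) and 0.51 with 1 Mek1 allele (limma adjusted p = 0.199) against controls. Skil, the co-repressor SnoN, averaged 8.80 ± 0.11 in double mutants, 8.64 ± 0.22 with 1 Mek1 allele and 9.12 ± 0.09 in controls. It gave -0.31 in double mutants (limma adjusted p = 0.172) and -0.48 with 1 Mek1 allele (limma adjusted p = 0.0682) against controls. In double mutants against controls Tgif1, another co-repressor, gave -0.37 (limma adjusted p = 0.142), with -0.07 and -0.10 on its other probes. The ubiquitin ligase Smurf1 gave 0.44 in that comparison (limma adjusted p = 0.327). Smurf1 was above background on only 3, 1 and 1 of 4 arrays in double mutants, 1 Mek1 allele and controls.

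Of 11 other target genes, 5 were measured, and 0 passed. Id2, another Id gene, gave -0.55 in double mutants against controls (95% interval -1.06 to -0.04, limma adjusted p = 0.232). Id2 was highest on controls 2 and 3, the brightest arrays, and without them the difference was -0.16 (limma adjusted p = 0.859). With 1 Mek1 allele against controls Id2 gave -0.16, which turned to 0.24 without those arrays and to 0.45 with array brightness as a covariate. The matrix genes Ccn2 and Tgfbi, targets of TGF-beta, gave -0.24 and -0.23 (limma adjusted p = 0.238 and 0.309), and a second Tgfbi probe gave 0.04.

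**Figure D4:**
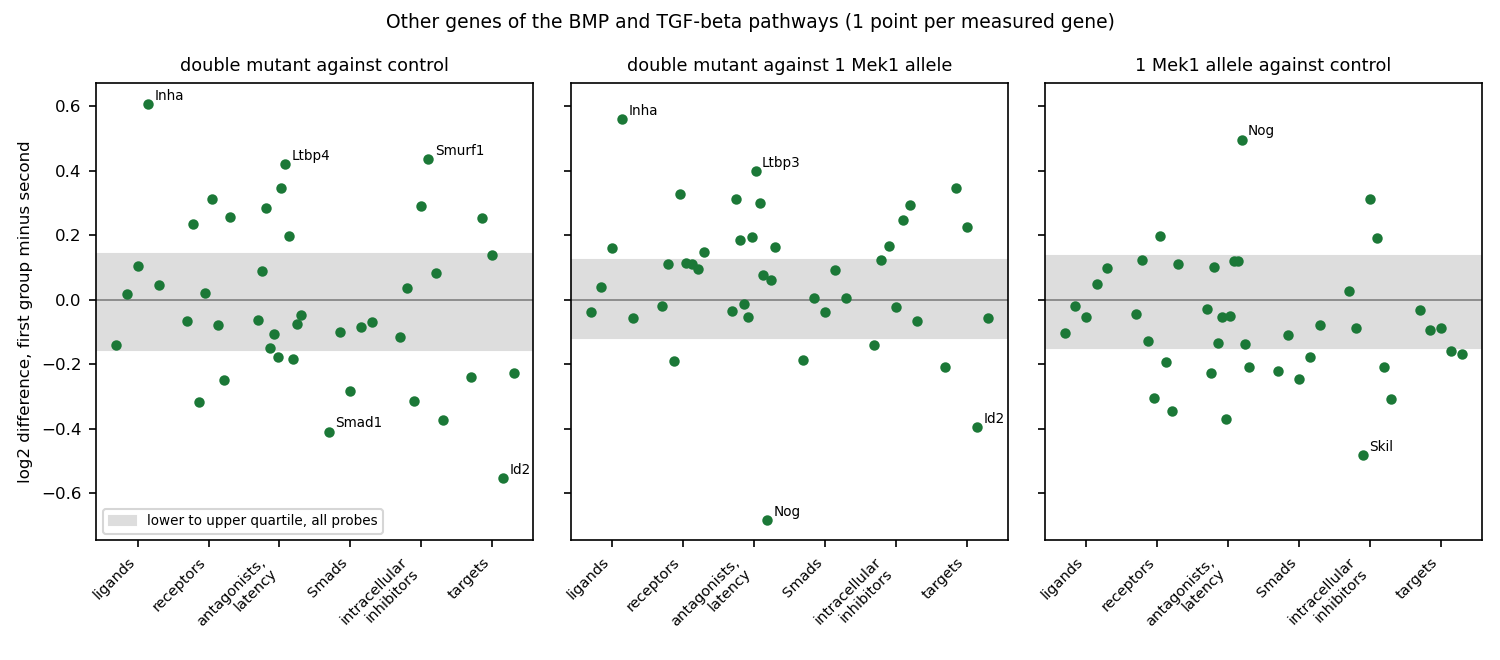
Log2 difference (y axis, first-named group minus second) of the 42 measured other pathway genes, 1 point per gene from its brightest passing probe, by role (x axis) in the 3 comparisons (panels). The grey band runs from the lower to the upper quartile of all tested probes, and genes beyond 0.39 in size are named. No point passed the threshold on limma's adjusted p.

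The genes whose pattern over the 12 arrays was most like that of Id1, among 11181 probes, were Smarcc2 (Pearson r = 0.90), Nfkbia (0.871) and Gpr27 (0.867). Those most like Bmp5 were Dcx (0.918), Trmt6 (0.88) and Lsm12 (0.869). The arrays share normalization and genotype, and the correlations are a description.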

How the data were processed

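Total RNA of 12 lung specimens was labelled with biotin and hybridised to Illumina arrays, per the labels. The deposited table holds, per the file headers, 1 linear intensity without normalization and 1 detection p-value for each probe and array. Log2 values in the authors' deposited series matrix have medians from 6.91 to 6.93, and served as an alternative. No software for these values is named in the sources used here.

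Here, normexp background correction (nec, limma 3.58.1, R 4.3.3) used the detection p-values, with an offset of 16, then log2 and quantile normalization. Tested probes had detection p under 0.01 on 4 or more of the 12 arrays. A model of 3 group means was fitted with lmFit and eBayes (9 residual degrees of freedom, two-sided tests), and 95% intervals were taken from the same fit. The number of arrays limits the precision. Symbols came from the platform annotation, with 1 symbol for 23978 probes and 1719 unlisted. RefSeq held 23962 of them. Within groups, log2 values correlated at 0.979 to 0.993, and no arrays were duplicates.

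Members and lists were chosen with earlier results of these data known. Named are all members, every listed pathway gene past the threshold, the 3 with the smallest unadjusted p in each role in double mutants against controls, the targeted genes, and the 3 nearest patterns of the 2 members with the smallest p. The second Ltbp3 probe, Nog, Smad6 and the test between probes were added after values were seen. The procedure was tested on simulated data. Alternatives covered background, scaling, filters, the probe rule, variance models, covariates, the replicate number as a block, and single arrays left out.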

Additional observations from a re-analysis of the deposited data

Results flagged for a closer look

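In 93 groups of 4 arrays, 4 had 1 array far from the other 3 by Dixon's gap test, where chance gives about 1 in 20. The bright Tgfbr2 probe was at 11.40 on 1 Mek1 allele replicate 1, with the others of its group at 11.54 to 11.55. Acvr2b was at 10.67 on double mutant replicate 1, with the others at 10.49 to 10.52. Ltbp4 was at 10.27 on control replicate 1, with the others at 9.92 to 9.93. Tgif1 was at 6.89 on 1 Mek1 allele replicate 2, with the others at 7.30 to 7.38.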

How the results depend on the processing

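Of 33 member results, 32 passed the threshold under none of the alternatives run for them, 28 for most, 27 for the second Bmpr1a probe and 26 for the dim Tgfbr2 probe. The exception, Id1 with 1 Mek1 allele against controls, made the member count 1 with no background correction, on the authors' log2 values and with an intensity trend. Signs were kept in 22 member results and turned under some alternative in 11, none of them past the threshold. With single arrays left out, the Id1 difference ran from 0.37 to 0.53. The count of pathway genes in double mutants against controls was 1 with no background correction, an offset of 50 or an intensity trend (Ltbp4), 1 with upper-quartile scaling or detection on all 12 arrays (Inha), and 2 on the authors' values and with array weights (Ltbp3 and Ltbp4). With single arrays left out it ran from 0 to 1, with Ltbp4 passing without control replicate 1 (0.51, limma adjusted p = 0.0397) and Inha without double mutant replicate 3 (0.74, limma adjusted p = 0.0287). With 1 Mek1 allele against controls it was 2 with no background correction, on the authors' values and with an intensity trend (Skil and Tgfbr1), and 1 with an offset of 50 (Skil). The cause was not tested.

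Deviations of same-numbered arrays correlated at -0.23 to 0.17, over 0.1 in 3 of 12 pairs. Differently numbered arrays were not compared, so whether replicate numbers pair the samples is not settled. With the replicate number as a block, 0 member probes passed (smallest limma adjusted p = 0.138), 0 of the 42 pathway genes read from their brightest probe passed in any comparison, and the call on the dimmer Ltbp3 probe was lost (limma adjusted p = 0.0708), the 1 call that changed among 96 results.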
